A study of Rattus norvegicus with 48 samples.

Results

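The 2 mitochondrial ribosomal RNAs, Mt-rnr1 (ENSRNOG00000030478) and Mt-rnr2 (ENSRNOG00000043866), were followed across rat motor cortex around implanted silicon electrodes. They were picked out by their IDs, with earlier results of these data known, and are 2 of the 18997 rows that occur in either of the deposited count tables. Mt-rnr1 and Mt-rnr2 encode the small-subunit and large-subunit ribosomal RNA of the mitochondrion. Their genes are separated only by a tRNA gene and are transcribed together from the heavy-strand promoter of the mitochondrial genome, ahead of most of the mitochondrial protein genes. The mitochondrial ribosome built on them translates the core subunits of the respiratory chain and the ATP synthase, on which neurons and glia of the cortex depend. Because each cell holds many copies of the mitochondrial genome, these RNAs are abundant in total RNA and, unlike cytoplasmic rRNA, carry short poly(A) tails. The files give IDs only, so the names used here came with the IDs and could not be checked against the reference table.

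Single-shank silicon probes had been placed in the motor cortex of male wild-type Sprague-Dawley rats aged 12 to 14 weeks, and tissue was taken 24 h, 1 week or 6 weeks later. Chosen areas of fixed sections were excised under a microscope with a laser (laser capture microdissection), either at most 100 µm from the shank (near) or at some 500 µm from it (far). Each far library pooled 4 smaller areas. Naive rats had no implant, and their tissue carries the labels 100 µm and 500 µm as well. There were 6 near and 6 far libraries from 3 rats at 24 h, from 5 rats at 1 week and from 4 rats at 6 weeks, and 6 naive libraries per position from 3 rats, 48 libraries in all. A rat sampled in both hemispheres gave 2 libraries per position, whose counts were summed, so that the rat is the replicate. Rats 2, 9, 10, 11, 20 and 22 were sampled in 1 hemisphere and gave 1 library per position. Totals ranged from 3363892 to 12844185 counts per library, and between 3062 and 16023 genes had a count. Fewer than 6000 genes had a count in 4 libraries, 1 far and 2 near at 1 week and 1 near at 24 h. Implanted and naive libraries are numbered in different series and lie in separate tables, so in any comparison with naive tissue the implant cannot be told apart from a batch of libraries. Since no other ID could be paired with a name, the labelled tissue was not checked against marker genes.

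Mt-rnr2 was the most abundant row and Mt-rnr1 the second most abundant row in 48 of 48 libraries. The median library gave 24.0% of its counts to the pair. This ranking is by counts per gene, with no correction for length. The row ranked next was one of 3 different IDs, ENSRNOG00000031979 in 21 libraries, ENSRNOG00000034234 in 21 and ENSRNOG00000058083 in 6, and it held 1.21% to 3.43% of the counts. Mt-rnr1 exceeded that row by 2.15-fold in the library where the gap was narrowest, by a median of 5.64-fold, and by 7.83-fold where it was widest. At these depths the widest 95% Wilson interval of a library's share reached 0.0371 percentage points to either side, which covers counting error only. Differences between rats and hemispheres were far larger than that, so counting error was small beside them. The interval takes each count as a separate draw, which was not checked.

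The rRNAs took a larger share of the counts beside the electrode than 500 µm away. Mt-rnr1 made up 11.6% ± 2.50 of near counts and 9.08% ± 1.61 of far counts (SD, n = 12 rats), and Mt-rnr2 19.2% ± 4.99 of near and 14.8% ± 2.86 of far counts. Together they held 30.8% ± 7.41 of near and 23.9% ± 4.39 of far counts. Within rats the summed share was 6.86 ± 5.47 percentage points higher near the shank (95% interval 3.44 to 10.5) and higher in 12 of 12 rats. An exact permutation test that flips the sign of each rat's difference, two-sided, gave p = 0.000488, the smallest this design allows (Benjamini-Hochberg adjusted p = 0.000977 over 4 measures). Mt-rnr2 was higher by 4.37 ± 3.46 points (interval 2.22 to 6.63) in 12 of 12 rats (exact p = 0.000488, adjusted p = 0.000977). Mt-rnr1 was higher by 2.49 ± 2.06 points (interval 1.17 to 3.86) in 11 of 12 rats (exact p = 0.000977, adjusted p = 0.00130). The exception was rat 17, at 6 weeks, in which the Mt-rnr1 share fell by 0.39 points from far to near tissue. A share does not separate more of these RNAs from less of all others, and in such bulk tissue fewer cells of a type and less RNA per cell cannot be told apart.

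At 24 h, Mt-rnr1 took 6.77%, 14.5% and 10.9% of near counts in rats 25, 29 and 30, against 5.69%, 11.4% and 10.3% of far counts. Mt-rnr2 took 10.8%, 28.3% and 17.5% of near counts in the same rats, against 9.87%, 21.2% and 15.7% of far counts. Each rat was higher near the shank for both rRNAs, but the rats differed from each other by more than their 2 positions did, and the near and far ranges overlapped. Rat 29 was highest and rat 25 lowest at both positions for both rRNAs. The mean difference was 1.60 ± 1.26 points for Mt-rnr1 and 3.29 ± 3.32 points for Mt-rnr2 (n = 3 rats, exact sign-flip p = 0.25 for each, the smallest that 3 rats allow, adjusted p = 0.321). Without rat 29 it was 0.88 points for Mt-rnr1 and 1.39 points for Mt-rnr2. With another rat left out it rose, to at most 2.06 points for Mt-rnr1 and 4.45 points for Mt-rnr2.

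At 1 week, the Mt-rnr1 share in rats 9, 10, 20, 22 and 23 was 10.1%, 15.0%, 9.03%, 14.2% and 10.4% near the shank and 8.69%, 9.22%, 8.20%, 10.7% and 9.21% far from it. The Mt-rnr2 share in these rats was 15.5%, 22.7%, 14.1%, 24.4% and 16.4% near and 13.8%, 14.5%, 12.5%, 18.1% and 15.3% far. All 5 rats were higher near the shank. Rats 10 and 22, each with 1 library per position, stood well above the other 3 in near tissue. In far tissue rat 22 was the highest and rat 10 was close to the rest. The near and far ranges overlapped for both rRNAs. The mean difference was 2.55 ± 2.10 points for Mt-rnr1 and 3.78 ± 3.25 points for Mt-rnr2 (n = 5 rats, exact sign-flip p = 0.0625 for each, the smallest that 5 rats allow, adjusted p = 0.281).

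At 6 weeks, Mt-rnr1 accounted for 14.1%, 11.3%, 10.6% and 11.9% of near counts in rats 2, 11, 17 and 19 and for 7.88%, 7.97%, 11.0% and 8.76% of far counts. Mt-rnr2 accounted for 24.4%, 19.6%, 17.0% and 19.6% of near counts and for 13.3%, 13.6%, 16.2% and 13.8% of far counts. For Mt-rnr2 the near values, from 17.0% upward, all lay above the far values, which ended at 16.2%. For Mt-rnr1 they overlapped through rat 17, whose far tissue was the highest of the 4 and whose near tissue was the lowest. How many of all genes separated near from far tissue at 6 weeks was not counted. Rat 2, with 1 library per position, showed the widest step of all 12 rats, 1.79-fold for Mt-rnr1 and 1.83-fold for Mt-rnr2. The mean difference was 3.08 ± 2.72 points for Mt-rnr1 (3 of 4 rats higher, exact sign-flip p = 0.25, adjusted p = 0.321) and 5.91 ± 4.19 points for Mt-rnr2 (4 of 4 rats higher, exact p = 0.125, the smallest that 4 rats allow, adjusted p = 0.281). Without rat 2 the difference for Mt-rnr1 was 2.03 points, and without rat 17 it was 4.24 points.

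**Figure D1:**
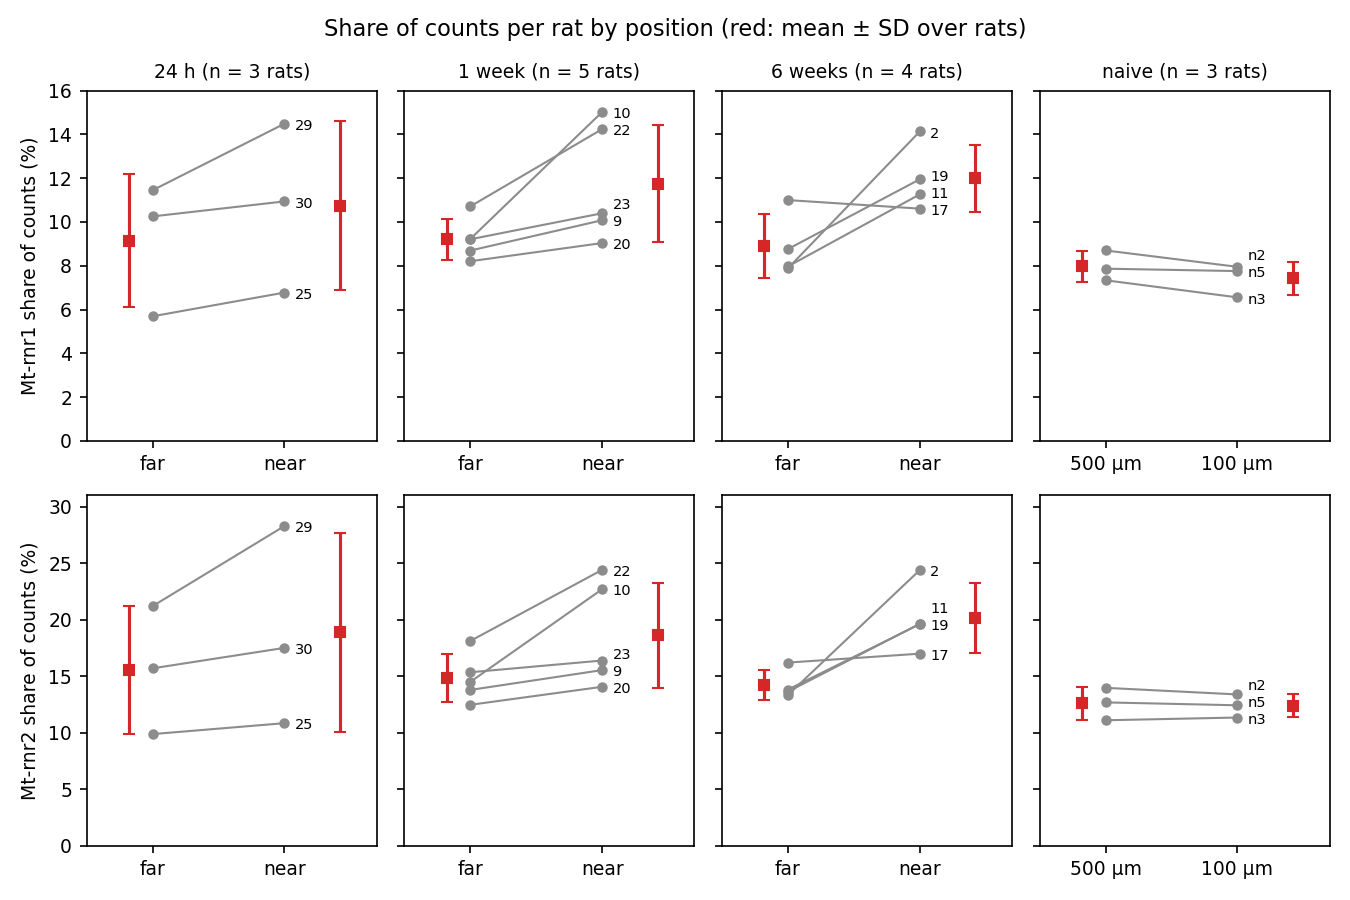
Share of all counts (percent) taken by Mt-rnr1 (top) and Mt-rnr2 (bottom) in far and near tissue at each time and at both naive positions; each grey line joins the values of 1 rat, numbered beside it, and red squares with bars give the mean ± SD over rats. Lines slope upward from far to near in every implanted rat except rat 17 for Mt-rnr1, and each naive line changes by less than 1 percentage point.

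In naive cortex the shares at the 2 positions lay close together once the hemispheres of each rat were summed. In rats n2, n3 and n5 the Mt-rnr1 share was 7.95%, 6.55% and 7.75% at the 100 µm position and 8.70%, 7.34% and 7.86% at the 500 µm position. The corresponding Mt-rnr2 shares were 13.4%, 11.3% and 12.4% at 100 µm and 14.0%, 11.1% and 12.7% at 500 µm. The summed share at 100 µm was 0.75 points below that at 500 µm on average (SD 0.52), lower in 3 of 3 rats (exact sign-flip p = 0.25, the smallest possible, adjusted p = 0.50). The mean step was -0.55 ± 0.38 points for Mt-rnr1 and -0.20 ± 0.42 points for Mt-rnr2. In each naive rat the summed share moved opposite ways in the 2 hemispheres. At 100 µm against 500 µm it differed by 0.92 points (left) and -2.56 points (right) in n2. In n3 these were -2.05 and 2.74 points, and in n5 -1.42 and 0.90 points. Every naive rat summed 2 libraries per position, whereas some implanted rats had 1. The bearing of this on the step was not tested. Whether the step in implanted rats differed from that in naive rats was not tested.

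Set against naive tissue at the matching position, the near share of each rRNA lay above the highest naive rat in 11 of 12 implanted rats, rat 25 being the exception. In far tissue this held for 7 of 12 rats for Mt-rnr1 and 6 of 12 for Mt-rnr2. The near mean exceeded the naive mean by 3.31, 4.33 and 4.57 points for Mt-rnr1 at 24 h, 1 week and 6 weeks, and by 6.49, 6.23 and 7.77 points for Mt-rnr2. At 6 weeks the 4 near values did not overlap the 3 naive values for either rRNA (exact permutation p = 0.0286, the smallest possible, adjusted p = 0.257 over 18 comparisons). At 1 week they did not overlap either, with exact p = 0.0536 for Mt-rnr1 and 0.0714 for Mt-rnr2 (adjusted p = 0.321 for both). The share of all genes that lay apart in this way, or above the highest naive rat in as many rats, was not counted. At 24 h, with rat 25 below or among the naive rats, exact p was 0.3 for Mt-rnr1 and 0.4 for Mt-rnr2 (adjusted p = 0.54 and 0.6). The 24 h values moved widely with the rat left out. The near mean exceeded the naive mean by 1.44 points for Mt-rnr1 and 1.79 points for Mt-rnr2 without rat 29. Without rat 25 it did so by 5.29 and 10.5 points. The far mean exceeded the naive mean by 1.16, 1.24 and 0.93 points for Mt-rnr1 and by 3.01, 2.26 and 1.66 points for Mt-rnr2 at the 3 times. Without rat 29 the far excess at 24 h was 0.0057 points for Mt-rnr1 and 0.20 points for Mt-rnr2, and without rat 25 it was 2.88 and 5.86 points. At 1 week the far excess of Mt-rnr2 was 1.44 points without rat 22, and at 6 weeks, without rat 17, the far excess was 0.24 points for Mt-rnr1 and 1.01 points for Mt-rnr2. Leaving out naive rat n3 instead gave a far excess at 6 weeks of 0.62 points for Mt-rnr1 and 0.92 points for Mt-rnr2. None of the 18 comparisons, which include those of the ratio below, passed an adjusted p of 0.05.

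The number of genes with a count differed in the same comparisons. It averaged 8146, 8120 and 9417 in near tissue at 24 h, 1 week and 6 weeks against 11246 at naive 100 µm, and 9081, 9993 and 9776 in far tissue against 8543 at naive 500 µm. Genes were counted over all rows of each table, 17317 for implanted and 17616 for naive rats, with 15936 rows in both. The part of this gene number in the differences from naive tissue was not tested.

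The times did not separate. The summed near share averaged 29.6% ± 12.6 at 24 h (n = 3), 30.4% ± 7.26 at 1 week (n = 5) and 32.1% ± 4.59 at 6 weeks (n = 4), and the summed far share 24.7% ± 8.60, 24.0% ± 3.04 and 23.1% ± 2.76. Neighbouring times thus differed by less than 1 SD at either position. The near-far difference averaged 4.89 points at 24 h, 6.32 points at 1 week and 8.99 points at 6 weeks. That order was not distinguishable from the spread among rats (exact permutation p = 0.607 for 1 week against 24 h, 0.524 for 6 weeks against 1 week and 0.486 for 6 weeks against 24 h, adjusted p = 0.607 for each). The spread over rats was widest at 24 h, at both positions, where rat 29 had the highest and rat 25 the lowest summed share of all 12.

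The order of the 8 groups by mean share was the same for both rRNAs at its top and bottom. For Mt-rnr2 it ran from near at 6 weeks (20.1%) through near at 24 h (18.9%), near at 1 week (18.6%), far at 24 h (15.6%), far at 1 week (14.8%), far at 6 weeks (14.2%) and naive 500 µm (12.6%) to naive 100 µm (12.4%). For Mt-rnr1 the order was near at 6 weeks (12.0%), near at 1 week (11.8%), near at 24 h (10.7%), far at 1 week (9.21%), far at 24 h (9.13%), far at 6 weeks (8.90%), naive 500 µm (7.97%) and naive 100 µm (7.42%). Each neighbouring pair in both orders had overlapping values.

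Individual hemispheres showed the same direction. Near tissue exceeded far tissue of the same hemisphere in 16 of 18 implanted hemispheres, for each rRNA and for their sum, and the sum was higher at 100 µm in 3 of 6 naive hemispheres. The 2 exceptions for the sum were the left hemisphere of rat 25, in which it fell by 2.92 points, and the right hemisphere of rat 17, in which it fell by 2.17 points. In the opposite hemisphere the sum was higher near the shank by 4.73 points in rat 25 and by 2.94 points in rat 17. Left and right libraries of the same rat and position differed by a median of 2.02 points over 18 pairs and by 9.90 points at most, in near tissue of rat 25 (11.5% left, 21.4% right). That widest left-right gap was larger than the mean near-far difference over rats.

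**Figure D2:**
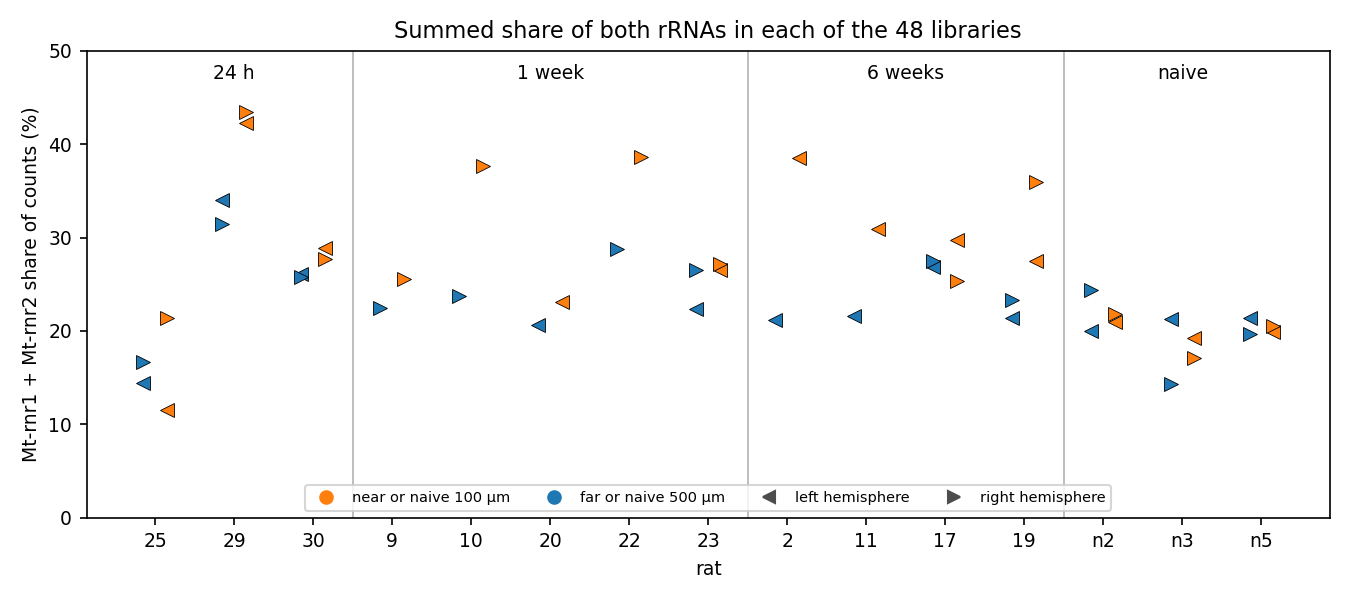
Summed share of counts (percent) of Mt-rnr1 and Mt-rnr2 in each of the 48 libraries, by rat and time; orange marks near tissue or naive 100 µm, blue far tissue or naive 500 µm, and triangles point to the hemisphere. Orange lies above blue of the same hemisphere in 16 of 18 implanted hemispheres and in 3 of 6 naive ones.

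The number of genes with a count was lower near the shank than far from it in 9 of 12 rats, with a median difference of -782 genes (range -5996 to 1394). Across the 12 rats this difference and the near-far difference in the summed share were not correlated beyond the permutation test (Pearson r = 0.0867, p = 0.793; Spearman rho = 0.161, p = 0.621; r = 0.200 without rats 10 and 20, the 2 farthest from the median). Leaving out the 4 libraries of fewer than 6000 genes dropped rat 20 and set left near against right far tissue in rat 23. The summed share was then 7.02 points higher near the shank (exact sign-flip p = 0.000977, the smallest that the remaining rats allow).

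The 2 rRNAs kept nearly the same proportion to each other. The ratio of Mt-rnr2 to Mt-rnr1 counts averaged 1.65 ± 0.122 in near tissue and 1.63 ± 0.109 in far tissue (SD, n = 12 rats). It is a ratio of counts, not of molecules, since the counts are not corrected for length. On the log2 scale near minus far was 0.01 ± 0.07 (95% interval -0.03 to 0.06), higher near in 8 of 12 rats (exact sign-flip permutation p = 0.581, adjusted p = 0.581). By time, this difference was 0.01 ± 0.11 at 24 h (2 of 3 rats higher near, exact p = 1), -0.02 ± 0.05 at 1 week (2 of 5 rats, exact p = 0.312) and 0.06 ± 0.04 at 6 weeks (4 of 4 rats, exact p = 0.125, the smallest possible). The 6-week and 1-week differences were 0.08 apart (exact permutation p = 0.0556, adjusted p = 0.333 over 6 comparisons).

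Rat 29 had the highest ratios of all rats, 1.95 near and 1.85 far, and also the highest summed shares. The lowest ratio was that of far tissue of rat 17, 1.47. In naive rats n2, n3 and n5 the ratio was 1.68, 1.73 and 1.60 at 100 µm and 1.61, 1.51 and 1.61 at 500 µm. The naive values lay within the wider range of the implanted ones at both positions. In near tissue 7 of 12 rats lay below the lowest naive rat and 2 above the highest. Among those below, rats 17, 25 and 30 rounded to 1.60, like n5. In far tissue 6 of 12 rats lay above the highest naive rat and 1 below the lowest. None of the 6 comparisons of the log2 ratio with naive tissue passed an adjusted p of 0.05 (exact permutation p from 0.161 to 1).

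**Figure D3:**
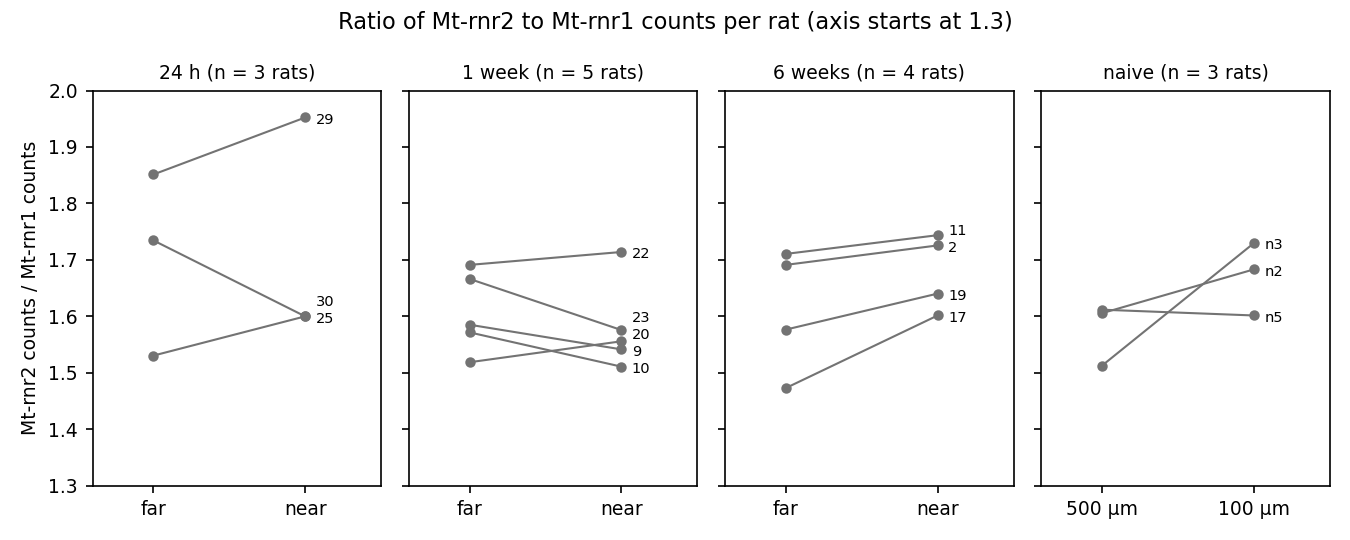
Ratio of Mt-rnr2 to Mt-rnr1 counts in far and near tissue at each time and at both naive positions, with each line joining the values of 1 rat; the axis starts at 1.3. Rat 29 is highest at 1.85 (far) and 1.95 (near), and the 4 lines at 6 weeks all rise while the others go both ways.

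At each single time, a test adjusted over all genes did not call the rRNAs. Library totals are themselves moved by RNAs this abundant, so edgeR's quasi-likelihood test was run with TMM scaling, which assumes that most genes do not change, and with the rat as a block for near against far. Each ± below is an approximate standard error. Near against far, Mt-rnr1 had a log2 fold change of 0.38 ± 0.30 at 24 h, 0.38 ± 0.23 at 1 week and 0.69 ± 0.26 at 6 weeks, and Mt-rnr2 of 0.39 ± 0.30, 0.35 ± 0.23 and 0.75 ± 0.26. The median over all 15254 tested genes was -0.04 at 24 h, -0.61 at 1 week and -0.02 at 6 weeks. Leaving out rat 20 moved the 1-week median to -0.18, and leaving out rat 9 moved it to -0.96. With the 4 libraries of fewer than 6000 genes removed it was -0.20. Without rat 29 the 24 h fold changes were 0.15 for Mt-rnr1 and 0.13 for Mt-rnr2, and without rat 25 they were 0.53 and 0.60. Of the 2 rRNAs, 0 were called at an adjusted p below 0.05 at each time. Before adjustment both passed 0.05 at 6 weeks, with values of 0.0283 for Mt-rnr1 and 0.0188 for Mt-rnr2 in edgeR (adjusted p = 1 for each). Of all 15254 tested genes, 359 did so at 6 weeks. With TMM scaling, 0 of the 2 rRNAs did so at the other times. With library totals alone, the unadjusted edgeR values at 1 week were 0.0221 for Mt-rnr1 and 0.0260 for Mt-rnr2. With DESeq2's size factors within edgeR they were 0.0254 and 0.0283. After adjustment these 1-week values ran from 0.597 to 0.915. Of all tested genes, 969 with library totals and 715 with DESeq2's size factors were below 0.05 at 1 week before adjustment. DESeq2's Wald test likewise called 0 of the 2 after adjustment, with an unadjusted p of 0.0207 for Mt-rnr1 and 0.0251 for Mt-rnr2 at 6 weeks. It called 529, 1282 and 335 of all 15254 genes at 24 h, 1 week and 6 weeks. Before adjustment it put 1554 genes below 0.05 at 6 weeks. Among all tested genes edgeR called 0.125% at 24 h, 0.387% at 1 week and 0.0721% at 6 weeks.

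The size of these fold changes depended on the scaling, though all were above 0. With library totals alone they were 0.23, 0.33 and 0.44 for Mt-rnr1 and 0.24, 0.30 and 0.49 for Mt-rnr2 at 24 h, 1 week and 6 weeks. With DESeq2's size factors within edgeR they were 0.57, 0.60 and 0.81 for Mt-rnr1 and 0.58, 0.58 and 0.87 for Mt-rnr2. Leaving both rRNAs out of the scaling changed them little, for example to 0.69 for Mt-rnr1 and 0.75 for Mt-rnr2 at 6 weeks. Some alternative fits called the rRNAs near against far (22 calls). In these their own spread was 17.6 to 98.3 times the spread the test used for them, whereas in 50 results without a call it was 0.795 to 1.55 times. In 18 further results, from fits whose prior spread had no abundance trend, it was 0.325 to 0.413 times, and 0 of these were called.

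Against naive tissue the near log2 fold changes were 0.99, 0.77 and 0.91 for Mt-rnr1 and 1.11, 0.71 and 0.92 for Mt-rnr2 at 24 h, 1 week and 6 weeks, with standard errors between 0.46 and 0.55. The medians over the 13834 genes tested there were -0.17, -0.30 and -0.17. Without rat 29 the 24 h changes were 0.30 for Mt-rnr1 and 0.24 for Mt-rnr2, and without rat 25 they were 1.43 and 1.57. With library totals alone the near changes were 0.53, 0.66 and 0.69 for Mt-rnr1 and 0.61, 0.59 and 0.70 for Mt-rnr2. Far against naive, the changes were 0.34, 0.18 and 0.08 for Mt-rnr1 and 0.45, 0.21 and 0.09 for Mt-rnr2, and without rat 29 those at 24 h were 0.02 and 0.03. With another rat left out, those at 24 h reached 0.67 for Mt-rnr1 and 0.78 for Mt-rnr2. With each rat left out in turn, the far changes at 1 week ran from 0.08 to 0.29 for Mt-rnr1 and from 0.09 to 0.34 for Mt-rnr2 (lowest without n3, nearly as low without rat 22). At 6 weeks they were -0.12 and -0.06 without rat 17. In these 6 comparisons edgeR called 0 of the 2 rRNAs after adjustment, 0 at an unadjusted p below 0.05, and the smallest unadjusted p was 0.0703, for Mt-rnr2 in near tissue at 24 h. Other settings gave smaller unadjusted values for near against naive, though 0 of the rRNAs passed after adjustment. DESeq2's Wald test put all 6 under 0.05 before adjustment, from 0.00393 to 0.0114 (adjusted p from 0.131 to 0.470). Of all 13834 genes it put 959, 913 and 511 there at 24 h, 1 week and 6 weeks. With DESeq2's size factors within edgeR the lowest value of the rRNAs was 0.0398, and with library totals alone it was 0.00769. Genes under 0.05 at the 3 times numbered 854, 1144 and 536 with the former and 982, 1214 and 608 with the latter. Without rat 25 the unadjusted edgeR values at 24 h were 0.0103 and 0.0108 near and 0.0267 and 0.0169 far, for Mt-rnr1 and Mt-rnr2 (adjusted p = 1 near and 0.711 far). In those fits 392 of 14479 genes near and 881 of 14011 genes far were below 0.05 before adjustment. The share of all genes called was 0.0578%, 0.123% and 0.0434% for near against naive and 0.00748%, 0.127% and 0.0598% for far against naive at the 3 times.

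**Figure D4:**
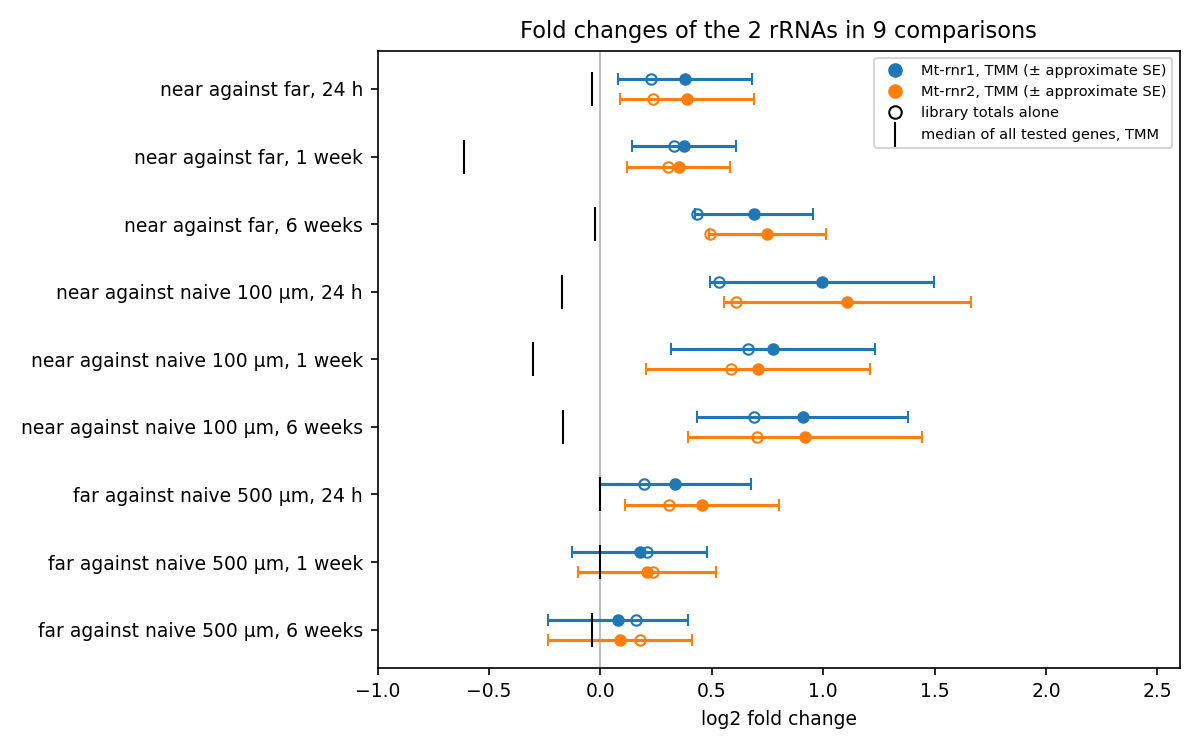
Log2 fold change of Mt-rnr1 (blue) and Mt-rnr2 (orange) in 9 comparisons, with filled points and bars for TMM scaling ± approximate standard error, open points for library totals alone, and black ticks for the median of all tested genes under TMM. The points of both rRNAs lie to the right of the median tick in every comparison, closest at 6 weeks in far against naive tissue.

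Some other abundant rows varied along with the rRNA share, and more of them varied against it. The third most abundant row of the summed libraries, ENSRNOG00000031979, took 1.81% ± 0.417 of near and 1.39% ± 0.284 of far counts and was higher near the shank in 11 of 12 rats (exact sign-flip permutation p = 0.00439). To find the rows whose pattern was most like that of the rRNAs, the CPM of each row, in a total without the rRNAs, was set against their summed share over the 24 values of 12 rats at 2 positions. This covered the 2384 rows whose log2 CPM averaged 6 or more, and the correlations are descriptions over values that share rats and libraries. The median Spearman rho was -0.19, with 44 rows above 0.5 and 307 below -0.5. CPM add up to a fixed total, so a rise in very abundant rows lowers the CPM of others. How far the larger number of negative correlations follows from this was not tested. The most alike were ENSRNOG00000034234 (rho = 0.97), with a median of 24991 CPM near and 16605 CPM far, and ENSRNOG00000029707 (rho = 0.96), with 20103 CPM near and 13572 CPM far. Both were higher near the shank in 11 of 12 rats. The 2 highest and 2 lowest rows were picked by their correlation over these same near and far values. Their near-far directions therefore follow in part from that choice and are no separate result. The most opposite were ENSRNOG00000012060 (rho = -0.88), with a median of 94.9 CPM near and 167 CPM far and higher near in 0 of 12 rats, and ENSRNOG00000038597 (rho = -0.85), with 112 CPM near and 188 CPM far and higher near in 2 of 12 rats.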

How the data were processed

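Both tables hold counts of reads per gene as deposited, whole numbers, which were used unchanged. Per the submitters' processing notes, the genome build was Rnor_6.0 and the tools, in no stated order, included STAR 2.6.1b, RSEM 1.3.1, DESeq2, FastQC 0.11.8 and cutadapt 2.3. RSEM estimates need not be whole, and no source used here says whether they were rounded. Libraries were made with a kit that keeps strand, per the labels' protocols. Whether rRNA was depleted, which would move these shares, is not stated in those sources.

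A share is a row's counts over all counts of the rat's libraries at a position. The labels name the rat of every library, so near and far were paired by rat. Nothing more says how separate the samples are, and the permutation p-values measure the spread between these rats. The edgeR p-values use a spread drawn in part from other genes. Shares were tested with two-sided exact permutation tests (Python 3.11.15, SciPy 1.17.1), with Benjamini-Hochberg adjustment per family. Folds come from edgeR 4.0.16 in R 4.3.3 (filterByExpr, TMM, robust glmQLFit, adjusted over all genes), tested on simulated data. The ± is the fold change over the square root of F. Alternatives were another total, the mean of a rat's libraries, log2 counts over other counts, other scalings, DESeq2 1.42.0, no low-count filter, no block and leaving out rats or libraries.

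The members and lists were chosen with earlier results of these data known. Besides the 2 rRNAs, the naming rule took the next most abundant row and the 2 highest and 2 lowest correlations. Since 0 IDs matched a symbol, 11 gene lists, among them the mitochondrial mRNAs, were not analysed here. No sequence of the 2 rRNAs was used here.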

Additional observations from a re-analysis of the deposited data

Results flagged for a closer look

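The Mt-rnr2 share of far tissue at 6 weeks was 16.2% in rat 17, apart from the other 3 rats, which lay between 13.3% and 13.8%. The gap to the nearest of them was 0.832 of the group's range, just above the critical value of Dixon's test for 4 samples. Rat 17 is also the only rat of the 12 whose Mt-rnr1 share was lower near the shank than far from it. This was 1 of 24 groups of values examined, and chance sets about 1 group in 20 apart in this way.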

How the results depend on the processing

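The near-far differences of the shares over 12 rats kept their direction and stayed past the threshold in all alternatives run. Leaving out each rat gave 5.91 to 7.44 points for the sum, 2.15 to 2.75 for Mt-rnr1 and 3.76 to 4.69 for Mt-rnr2. Without the block by rat, the permutation p was 0.0118 for the sum, 0.00888 for Mt-rnr1, 0.0152 for Mt-rnr2 and 0.785 for the log2 ratio (adjusted p = 0.0203 for each share). Dropping the block left each of these calls, and those of the rRNAs in edgeR, as they were, while the genes that edgeR called near against far at 24 h, 1 week and 6 weeks went from 19, 59 and 11 to 0, 6 and 1.

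Both rRNAs were called near against far by edgeR with no low-count filter, at log2 fold changes for 24 h, 1 week and 6 weeks of 0.38, 0.38 and 0.69 (Mt-rnr1) and 0.39, 0.35 and 0.75 (Mt-rnr2). They were also called without the 4 libraries of fewer than 6000 genes, at 0.29, 0.48 and 0.70 (Mt-rnr1) and 0.29, 0.44 and 0.76 (Mt-rnr2). Leaving out rat 10, 20 or 22 at 1 week, or rat 2 or 11 at 6 weeks, did the same for both. Genes called at the 3 times numbered 18, 43 and 30 of 17317 with no filter and 39, 30 and 42 of 15079 without the 4 libraries. Those called at 1 week were 24 of 15230, 31 of 15226 and 37 of 15186 without rats 10, 20 and 22. At 6 weeks they were 26 of 15231 and 22 of 15198 without rats 2 and 11. Over all rats left out, the 24 h changes spanned 0.15 to 0.53 (Mt-rnr1) and 0.13 to 0.60 (Mt-rnr2), lowest without rat 29, the 1-week changes spanned 0.23 to 0.53 (Mt-rnr1) and 0.21 to 0.49 (Mt-rnr2), and the 6-week changes 0.49 to 0.95 and 0.56 to 0.99. The fold changes hardly moved with the filter. With a prior spread without an abundance trend, added after seeing the data, 0 of the 2 were called with no low-count filter or without the 4 libraries.

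Far against naive at 6 weeks, the fold change turned negative without rat 17 or n3 (-0.12 to 0.19 for Mt-rnr1, -0.059 to 0.22 for Mt-rnr2). For the log2 ratio at 24 h, near minus far was -0.015 with the mean of a rat's libraries and -0.00018 without the 4 libraries; leaving out a rat gave -0.026 to 0.070. Other uncalled values that changed sign with a rat left out follow. The near-far difference changed by -0.095 to 0.0015 (log2 ratio, 1 week minus 24 h), -0.012 to 0.085 (log2 ratio, 6 weeks minus 24 h), -0.48 to 4.05 points (sum, 1 week minus 24 h) and -0.10 to 5.53 points (sum, 6 weeks minus 1 week). Against naive, the log2 ratio was -0.0030 to 0.047 (far, 1 week), -0.062 to 0.081 (near, 24 h) and -0.025 to 0.030 (near, 6 weeks). Between times, the log2 ratio was -0.025 to 0.047 (far, 6 weeks minus 1 week) and -0.076 to 0.068 (near, 6 weeks minus 24 h). The summed share was -5.23 to 7.34 (near) and -5.25 to 3.29 points (far) for 1 week minus 24 h, -0.36 to 3.84 and -2.25 to 0.29 for 6 weeks minus 1 week, and -3.47 to 9.11 and -6.15 to 2.39 for 6 weeks minus 24 h. The cause of these changes was not tested. 

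Counts of genes called by edgeR varied with the alternatives from 0 to 39, 0 to 74 and 0 to 55 (near against far at 24 h, 1 week and 6 weeks, from 19, 59 and 11), from 1 to 30, 4 to 40 and 2 to 18 (near against naive, from 8, 17 and 6) and from 1 to 9, 4 to 22 and 2 to 18 (far against naive, from 1, 17 and 8). DESeq2's Wald test called 529, 1282 and 335, then 400, 308 and 183, then 680, 777 and 659. At 1 week, near against far, DESeq2 size factors split the calls of edgeR into 20 higher and 21 lower, against 8 and 51 with TMM. Counting error at the depth per library was small beside the differences in share between rats.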

Other observations

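The ratio of Mt-rnr2 to Mt-rnr1 counts was higher in the right than in the left hemisphere in 6 of 6 naive pairs of libraries, and in 5 of 12 implanted pairs. These pairs come from 3 naive and 6 implanted rats, at 2 positions each, and the difference between hemispheres was not tested. It was noticed after the values were seen.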
